A study of Oryza sativa with 12 samples.

Results

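Anthers of 2 rice cultivars kept at 24 °C were compared: ERY (Erythroceros Hokkaido), labelled cold tolerant, and S.AND (Sant'Andrea), labelled susceptible to cold. The genes described are all those with at least 1 RPKM (reads per kilobase of gene model, scaled by total reads) in the mean of ERY CONTROL or of S.AND CONTROL, which were 24784 of the 55985 features of the table. In each cultivar, 3 biological replicates of pooled anthers were taken at the post-meiotic stage from control plants and 3 from plants given 1 night at 8 °C (ERY COLD and S.AND COLD), 12 samples in all, none of them transgenic or mutant by their labels. Each cultivar was harvested at the auricle distance (how far the auricle of the flag leaf stands from that of the leaf below) that matched this stage in that cultivar. Only the authors' mean of each group was used here, so no value below has an SD and no difference has a test, and the table gives no read counts. Pairs of values are given with ERY first and S.AND second unless said otherwise, and control means are those of ERY CONTROL and S.AND CONTROL.

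At this stage of rice anther development, the tapetum, the innermost layer of the anther wall, makes precursors of the lipid polymer sporopollenin. These are exported through transporters and lipid transfer proteins to the microspores, where the polymer forms the outer pollen wall. The tapetum is built and later dismantled under a cascade of MYB, bHLH and PHD-finger transcription factors, and it also feeds sugars to the microspores, which later store them as starch. The question is how far the cultivars' anthers differed in these processes without cold.

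The control means can be outlined as follows. Of 10 genes of sporopollenin and cuticle lipid synthesis, 9 lay past 2-fold on the S.AND side, up to 560-fold. On that side were also 4 of 13 tapetum regulators (30.8%) and 3 of 7 transport genes (42.9%), beside 11.2% of all genes. Within 2-fold were 4 of 6 genes of stamen identity and early cell fate, with 1 past it on each side. So were 8 of 9 genes of callose, sugar and pollen maturation, beside 80.9% of all genes. Starch and sugar genes past 2-fold were about as frequent as among all genes. Ethylene receptor and signalling genes were within 2-fold, as were 80.9% of all genes. Genes past 4-fold were most frequent on chromosome 11. There, a stretch of neighbouring genes near the end of the short arm contains the fatty acid desaturase gene OsFAD3. Of its 36 genes, 25 were above the limit of 1 RPKM, and 19 of these were under 1 RPKM in ERY CONTROL. Those 19 passed the limit only through S.AND CONTROL. The end of chromosome 12 carries close copies of such genes, which makes their single values uncertain.

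Over all genes, most means were alike in both cultivars. Of the 24784 genes, 20058 (80.9%) were within 2-fold, and the log2 ratio (S.AND CONTROL over ERY CONTROL) had a median of 0.04, with quartiles of -0.29 and 0.36. Past 2-fold (a ratio of at least 2) lay 2768 genes on the S.AND side (11.2%), with the higher mean in S.AND CONTROL, and 1958 on the ERY side (7.90%). At 4-fold, the counts were 1475 (5.95%) on the S.AND side and 860 (3.47%) on the ERY side, at 8-fold 923 and 558, and at 16-fold 596 and 425. These shares are the background for every count of genes below. Genes listed at 0 in one cultivar are counted as past every fold: 112 had a 0 in ERY CONTROL, and 91 had a 0 in S.AND CONTROL. Just inside the limit of 1 RPKM, LOC_Os12g39100 had 1.0004 and 0.458 RPKM in the control means, and just outside it LOC_Os08g04300 had 0.749 and 0.9998. Between 1 and 1.1 RPKM in the higher mean lay 355 genes, and between 0.9 and 1 RPKM lay 441 that were left out.

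Genes were also divided by the higher of both control means. The difference itself enters that mean, so the shares are a description and not a relation to level. Among 4390 genes with a higher mean of 1 to 3 RPKM, 23.9% lay past 2-fold on the S.AND side and 15.1% on the ERY side. Among 5572 genes of 30 to 100 RPKM, these shares were 4.33% and 3.50%. Among the 91 genes of 1000 RPKM and over, they were 27.5% (25 genes) and 6.59% (6 genes). Of those 25 genes, 6 belong to the anther development list described next. At 4-fold, 13 of the 91 lay on the S.AND side and 0 on the ERY side, and over the bins the ERY share went down from 7.06% at 1 to 3 RPKM to 1.15% at 100 to 1000 RPKM. Genes 2-fold higher in S.AND CONTROL held 12.4% of its summed RPKM and 3.09% of that of ERY CONTROL. In the other direction, genes 2-fold higher in ERY CONTROL held 5.60% of its sum and 1.75% of that of S.AND CONTROL.

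**Figure D1:**
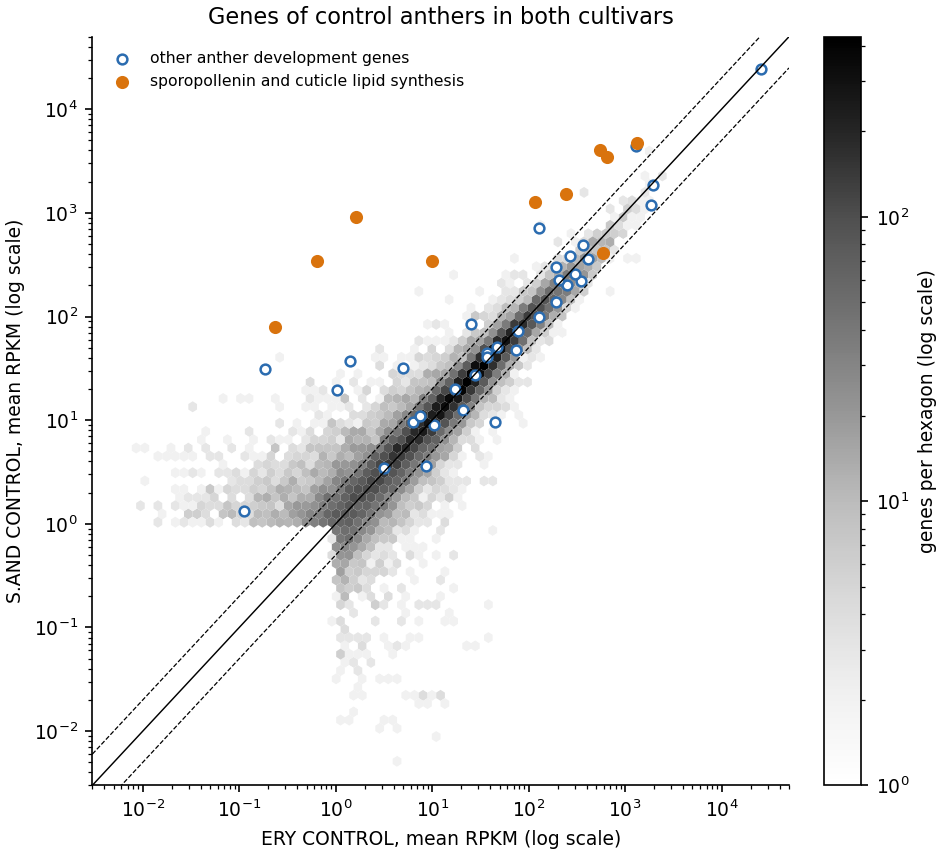
Mean RPKM of each gene in ERY CONTROL (x axis, log scale) against S.AND CONTROL (y axis, log scale); grey hexagons are coloured by the number of genes, the solid line marks equal means and the dashed lines 2-fold. Of the 10 genes of sporopollenin and cuticle lipid synthesis (orange), 9 lie above the upper dashed line, while most other anther development genes (blue circles) lie between the lines; genes listed at 0 are not drawn.

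Anther development was read from 45 known genes that the study lists, all of which were measured above the limit. Of these, 17 were 2-fold or more higher in S.AND CONTROL (background 11.2%), 2 in ERY CONTROL (background 7.90%) and 26 were within 2-fold, with a median log2 ratio of 0.25. The labelled tissue is visible in both cultivars. OsMADS3, a stamen identity gene of the MADS box family, had 415 and 362 RPKM in the control means. OsC6, a lipid transfer protein made in the tapetum, had 25952 and 24571 RPKM. Of the markers of stamen and tapetum fixed for this check, UDT1, TDR, OsRAFTIN1 and RTS were also within 2-fold, while OsC4 and CYP703A3 were higher in S.AND CONTROL. Genes of green tissue were read too: the 10 genes described as chlorophyll A-B binding summed to 1111 and 875 RPKM in the control means and had a median log2 ratio of -0.20, with 0 of 10 past 2-fold in the controls. The 9 genes described as photosystem leaned the other way. They summed to 602 and 711 RPKM with a median log2 ratio of 0.29, and 1 of 9 (11.1%, background 11.2%) was past 2-fold on the S.AND side. Both groups come from the study's cold-responsive genes, which were called with these control libraries.

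Of the roles into which the list was divided, the enzymes that build sporopollenin and the anther cuticle had the highest median ratio. Their 10 means summed to 3485 and 17083 RPKM in the control means, and the median of their log2 ratios was 3.16. OsTKPR2 (LOC_Os01g03670), a tetraketide alpha-pyrone reductase of the last step of the sporopollenin precursor pathway, had means of 1.63 (CONTROL) and 2.94 RPKM (COLD) in ERY and of 914 (CONTROL) and 535 RPKM (COLD) in S.AND. Both S.AND means of OsTKPR2 thus stood far above both ERY means, 560-fold in the controls. Its companion reductase OsTKPR1 (LOC_Os09g32020) had 10.1 and 10.5 RPKM in ERY CONTROL and COLD and 344 and 220 in S.AND CONTROL and COLD, a control ratio of 34.2-fold. OsPKS2 (LOC_Os07g22850), a polyketide synthase that acts just before the reductases, had 0.646 and 0.762 RPKM in ERY CONTROL and COLD against 343 and 191 in S.AND. The control ratio of OsPKS2 was 531-fold, but the second polyketide synthase, OsPKS1 (LOC_Os10g34360), was abundant in both cultivars, with 1316 and 4705 RPKM in the control means (3.58-fold). NP1 (LOC_Os10g38050), a glucose-methanol-choline oxidoreductase needed for the pollen wall, had 0.234 and 78.7 RPKM in the control means (336-fold).

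The upstream enzymes of the pathway were present in both cultivars at high levels and also higher in S.AND CONTROL. OsACOS12 (LOC_Os04g24530), the acyl-CoA synthetase that activates fatty acids, had 549 and 4024 RPKM in the control means (7.32-fold). The fatty acid hydroxylase CYP703A3 (LOC_Os08g03682) had 115 and 1261 RPKM (10.9-fold), and the fatty acid omega-hydroxylase CYP704B2 (LOC_Os03g07250) had 657 and 3471 (5.28-fold). DPW/OsMS2 (LOC_Os03g07140), which reduces fatty acyl carrier proteins to fatty alcohols, had 246 and 1527 RPKM. The exception was WDA1 (LOC_Os10g33250), needed for anther wax, with 588 and 414 RPKM in the control means. In the COLD means the same 9 genes lay past 2-fold on the S.AND side, with a median log2 ratio over the 10 genes of 2.21.

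Transport to the microspores was mixed. The lipid transfer protein OsC4 (LOC_Os08g43290) had 1305 and 4405 RPKM in the control means (3.37-fold), and the ATP binding cassette exporter PDA1/OsABCG15 (LOC_Os06g40550) had 127 and 715 (5.64-fold). MTR1 (LOC_Os02g28970), a fasciclin glycoprotein, was low in both, with 0.113 and 1.33 RPKM. The other 4 genes of this role were within 2-fold. They were OsC6 (above), the Ubisch body protein OsRAFTIN1 (1957 and 1861 RPKM), the tapetal small protein RTS (1853 and 1188) and the transporter OsABCG26 (299 and 254).

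The regulators of the tapetum and its breakdown divided into 4 genes higher in S.AND CONTROL and 9 within 2-fold. OsMYB103 (LOC_Os04g39470), a MYB factor of the tapetum, had means of 0.185 (CONTROL) and 0.158 RPKM (COLD) in ERY and of 31.2 (CONTROL) and 11.2 RPKM (COLD) in S.AND. The control ratio was 169-fold, and both ERY means were far under 1 RPKM. The PHD-finger factor PTC1 (LOC_Os09g27620) had 1.42 and 37.0 RPKM in the control means (26.1-fold), and the MYB factor OsTDF1 (LOC_Os03g18480) had 1.03 and 19.7 (19.0-fold). OsCP1 (LOC_Os04g57490), a cysteine protease of the tapetum, had 4.98 and 32.1 RPKM (6.44-fold). By contrast, the bHLH factors of the same cascade had like means: UDT1 had 47.3 and 51.1 RPKM, TIP2/bHLH142 36.9 and 41.1, TDR 367 and 495, and EAT1/DTD 193 and 300 in ERY CONTROL and S.AND CONTROL. GAMYB, a gibberellin-regulated MYB factor, had 206 and 224 RPKM.

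Among the genes of stamen identity and early cell fate, TMS10L (LOC_Os03g49620), a receptor-like kinase, was higher in S.AND CONTROL (25.5 and 85.0 RPKM) and OsTDL1A (LOC_Os12g28750), a small protein ligand, was higher in ERY CONTROL (8.73 and 3.58 RPKM). The other 4 genes of this role, among them the receptor kinases TMS10 and OsMSP1, were within 2-fold. Of the 9 genes of callose, sugar and pollen maturation, 8 were within 2-fold and 7 were lower in S.AND CONTROL, with a median log2 ratio of -0.40. The one past 2-fold was OsUGP2 (LOC_Os02g02560), a UDP-glucose pyrophosphorylase, with 44.8 and 9.58 RPKM in the control means. Its relative OsUGP1 had 350 and 218 RPKM, the callose synthase gene GSL5 191 and 139, and the MYB factor CSA 266 and 386. Since each cultivar was staged by its own auricle distance, a difference in anther stage at harvest cannot be told apart from cultivar in these means. In pooled anthers, fewer cells of a type and less RNA per cell cannot be told apart either.

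**Figure D2:**
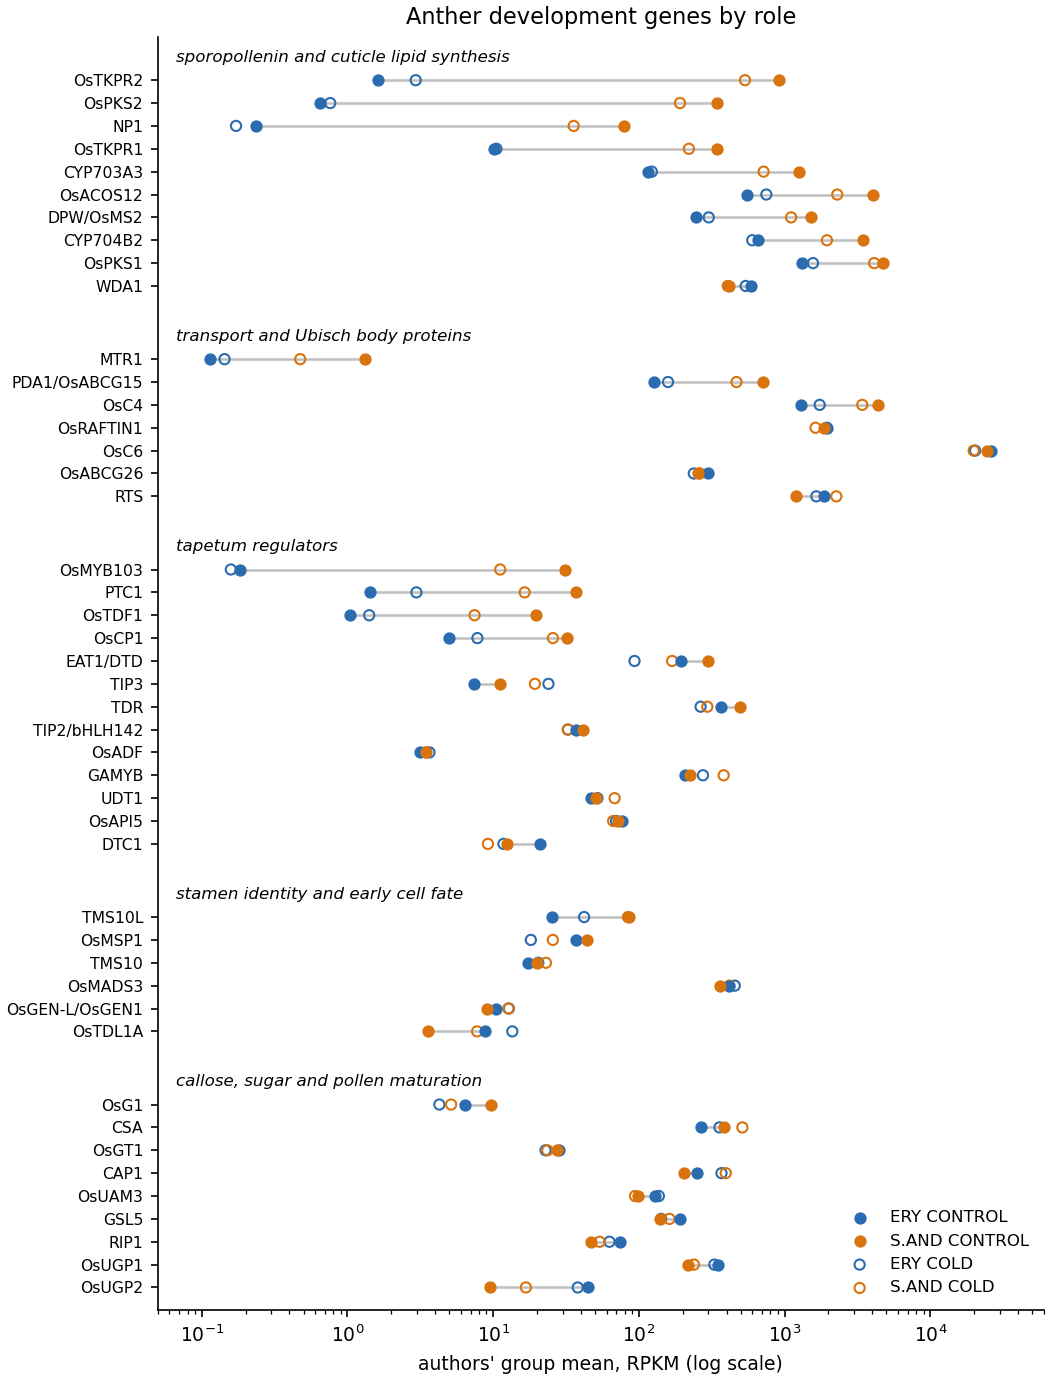
Authors' mean RPKM (x axis, log scale) of the 45 anther development genes in ERY CONTROL (filled blue), S.AND CONTROL (filled orange), ERY COLD (open blue) and S.AND COLD (open orange), grouped by role, with a grey bar joining both control means. In the top group, 9 of 10 genes have both S.AND means to the right of both ERY means, from 3.58-fold for OsPKS1 to 560-fold for OsTKPR2, and WDA1 lies the other way.

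Starch and sugar genes were taken from the study's list of 42, of which 41 were in the table and 40 above the limit. Of these, 4 were 2-fold or more higher in S.AND CONTROL, 5 in ERY CONTROL and 31 within 2-fold, with a median log2 ratio of -0.05. These are 10% of the 40 on the S.AND side, beside a background of 11.2%, and 12.5% on the ERY side, beside 7.90%. OsUGP2 is one of the 5. Most of the other 8 move or cleave sugars. OsMST8 (LOC_Os01g38670), a monosaccharide transporter, had means of 258 (CONTROL) and 313 RPKM (COLD) in ERY and of 57.9 (CONTROL) and 118 RPKM (COLD) in S.AND, so that both ERY means were the higher. The other monosaccharide transporter, OsMST7, had 398 and 408 RPKM in the controls. OsINV4 (LOC_Os04g33720), an invertase, which splits sucrose, had 76.3 and 11.8 RPKM in the control means (6.49-fold higher in ERY), but 21.4 in ERY COLD and 26.1 in S.AND COLD.

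Other invertases pointed the other way. OsINV3 (LOC_Os02g01590) had 74.0 and 231 RPKM in the control means (3.13-fold), and OsINV2 (LOC_Os04g45290) had 2.22 and 8.96 (4.03-fold). In the COLD means, OsINV3 had 73.1 and 79.1 RPKM and OsINV2 had 5.17 and 9.49, so neither was past 2-fold there. The sucrose transporters OsSUT5 (20.4 and 53.1 RPKM) and OsSUT1 (0.520 and 1.38) were also higher in S.AND CONTROL (OsSUT1 was within 2-fold with 1 RPKM added), whereas OsSUT2 (17.8 and 20.7) and OsSUT4 (17.8 and 17.9) were alike. Among 10 starch synthases, 9 were within 2-fold, beside 80.9% of all genes. OsGBSSI (LOC_Os06g04200), the granule-bound starch synthase that makes amylose in the grain, had 5.15 and 0.182 RPKM in the control means, and 2.60 and 0.0561 in the COLD means (28.3-fold in the controls). Its paralog OsGBSSII had 40.2 and 37.0 RPKM. The starch phosphorylase OsPHOH (LOC_Os01g63270) had 42.1 and 18.02 RPKM in the control means. Beside the same 80.9% of all genes, all 6 ADP-glucose pyrophosphorylase genes, which make the substrate of starch synthesis, were within 2-fold. Of these, OsAGPS1 was the most abundant, with 149 and 158 RPKM in the control means.

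Ethylene genes were read from the 57 genes of the study's table, 42 of them above the limit. Of these, 4 were past 2-fold on the S.AND side and 4 on the ERY side, with a median log2 ratio of 0.03. Each side thus held 9.52% of the 42, beside a background of 11.2% on the S.AND side and 7.90% on the ERY side. All 7 sensing genes and all 12 signal transduction genes above the limit were within 2-fold, beside 80.9% of all genes. The receptor gene OsERS1 had 79.3 and 89.7 RPKM in the control means, and OsEIN2, the central membrane protein of the pathway, had 31.9 and 29.2. Synthesis differed more, at low levels. Ethylene is made from the precursor ACC, formed by ACC synthases (ACS) and oxidised by ACC oxidases (ACO). Of 7 synthesis genes above the limit, OsACO4 (5.86 and 1.75 RPKM), OsACS3 (2.51 and 0.882), OsACO3 (1.18 and 0.417) and OsACO1 (2.58 and 1.19) were at least 2-fold higher in ERY CONTROL. These 4 are 57.1% of the 7, beside a background of 7.90%. OsACS3 and OsACO3 passed the limit only through ERY CONTROL, and genes low in both cultivars were left out, so the filter enters this share. OsACS3, OsACO3 and OsACO1 had a higher mean of 1 to 3 RPKM, where 15.1% of all genes lay on the ERY side. With 1 RPKM added to both means, 3 of the 4 genes higher in ERY CONTROL were within 2-fold. OsACS1 was higher in S.AND CONTROL, with 1.098 and 3.31 RPKM. The most abundant synthesis genes, OsACO2 (26.8 and 19.0 RPKM) and OsACS6 (20.7 and 20.1), were within 2-fold.

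Of the ethylene response factors above the limit, OsERF1 (LOC_Os04g46220) had 4.60 and 24.5 RPKM in the control means (5.33-fold), and 25.9 and 31.2 in the COLD means. Likewise OsERF65 (2.64 and 7.55 RPKM) and OsERF34 (5.003 and 10.3) were higher in S.AND CONTROL, while in the COLD means OsERF65 had 9.91 RPKM in ERY and 7.77 in S.AND and OsERF34 had 24.8 and 20.3. With 1 RPKM added to both means, or after centring on the median gene, OsERF34 was within 2-fold. The study chose OsERF65 and OsERF34 for their cold response in these same samples, so their control levels are not independent of that choice. The 6 factors with the highest control means were within 2-fold. OsEREBP1 had 378 and 452 RPKM, OsERF64 265 and 291, and OsWR1 195 and 171. OsERF74 had 126 and 139 RPKM, OsAP2-39 98.7 and 65.1, and OsERF3 70.9 and 63.2.

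Other gene groups could be formed only from the 1459 genes that the study describes as cold responsive, 1436 of them above the limit. Of these 1436, 146 were past 2-fold on the S.AND side and 56 on the ERY side (10.2% and 3.90%), with a median log2 ratio of 0.17, against -0.01 in the COLD means. They were called with these control libraries, so the counts are not independent evidence. Of 8 WRKY genes, transcription factors mostly known from defence, 5 were past 2-fold on the S.AND side and 0 on the ERY side, and their median log2 ratio was 1.28 in the controls and 0.22 in the COLD means. WRKY45 (LOC_Os05g25770) had means of 3.81 (CONTROL) and 27.4 RPKM (COLD) in ERY and of 18.7 (CONTROL) and 127 RPKM (COLD) in S.AND, and was higher in S.AND at both temperatures. WRKY53 (LOC_Os05g27730) had 9.17 and 36.6 RPKM in the controls and 139 and 216 in the COLD means. The WRKY share on the S.AND side was 62.5%, beside 10.2% of all described genes and the background of 11.2%. The AP2/ERF (4 of 21, 19.0%), NAC (2 of 12, 16.7%), MYB (4 of 25, 16%) and auxin (3 of 19, 15.8%) groups each had a few genes on that side, and the kinase group (5 of 69, 7.25%) lay under the background. Each of these groups had 0 genes past 2-fold on the ERY side. Cell wall genes had 3 of 25 on the ERY side (12%, background 7.90%) and 1 on the S.AND side. Among them, a glycosyl hydrolase family 17 gene (LOC_Os01g71810) had 93.6 and 22.4 RPKM, an expansin precursor gene (LOC_Os02g44108) 11.7 and 4.34, and a pectinesterase gene (LOC_Os08g12410) 44.9 and 18.6 in ERY CONTROL and S.AND CONTROL.

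Single genes of other kinds stood much further apart. A NAC gene described as no apical meristem protein (LOC_Os10g33760) had 0.122 and 17.6 RPKM in the control means (145-fold), and 0.636 and 3.18 in the COLD means. A gene for an aspartic proteinase of the nepenthesin type (LOC_Os04g37570) had 2.65 and 186 RPKM in the control means (70.2-fold), and 1.18 and 61.3 in the COLD means. An RPM1-type disease resistance gene (LOC_Os11g11960) had 0.481 and 14.9 RPKM in the control means (30.9-fold), but 2.75 and 6.08 in the COLD means. A gene for a 10 kDa polypeptide of photosystem II (LOC_Os07g05365) had 0.753 and 19.4 RPKM in the control means, but 1.55 and 2.94 in the COLD means, within 2-fold. The other 8 photosystem genes were within 2-fold in the controls. On the ERY side, the F-box gene OsFBD16 (LOC_Os12g37110) had 15.1 and 0.0074 RPKM in the control means, and 6.28 and 0.0498 in the COLD means. A phosphoesterase gene (LOC_Os11g38050) had 13.8 and 0.124 RPKM (111-fold), an alpha-galactosidase gene (LOC_Os07g26900) 12.001 and 0.516 (23.3-fold), and a kinesin-related gene (LOC_Os09g25380) 37.2 and 2.12 (17.5-fold). Over all genes of at least 10 RPKM read in both, the highest ratio was that of LOC_Os08g31910 (0.0119 and 24.3 RPKM) and the lowest that of LOC_Os02g27160 (14.9 and 0.00579 RPKM), both undescribed in the sources used here.

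For qRT-PCR, primers were designed for 6 genes selected from these libraries and for 2 reference genes, and the RPKM values of these genes are a description. MARbp (LOC_Os12g20410) was read almost only in ERY, with 79.6 (CONTROL) and 68.5 RPKM (COLD) in ERY against 0.0919 and 0.0714 in S.AND. OsMYB5 (LOC_Os05g41166) had 45.0 and 2.51 RPKM in the control means, and the undescribed gene LOC_Os02g30470 had 110 and 1.36. The igA FC receptor gene (LOC_Os07g40890) was read almost only in S.AND, with 501 (CONTROL) and 486 RPKM (COLD) in S.AND against 0.719 and 0.414 in ERY. OsFAD3 (LOC_Os11g01340), a desaturase that makes trienoic fatty acids, had 278 and 423 RPKM in S.AND CONTROL and COLD against 1.29 and 1.43 in ERY. The splicing factor gene U2AF (146 and 161 RPKM in the controls) and the reference genes OsUBQ (1643 and 2191) and NABP (37.1 and 42.7) were within 2-fold. Shown 5′ to 3′ are the study's primers for the gene of this set most one-sided toward each cultivar and for OsFAD3. The RPKM values were read by locus identifier and do not depend on these oligos. They are in lower case throughout, since no base is singled out. Whether the OsFAD3 primers also match a copy on chromosome 12 was not looked up here.
MARbp forward: tgaatgcctacagcgagatg
MARbp reverse: ttggcctcctttaccaagtc
igA FC receptor forward: gtttccgaaggtgcctgaac
igA FC receptor reverse: gaagtggaactcaggcttgg
OsFAD3 forward: agcttgctttccttccttcc
OsFAD3 reverse: aatttgaggggaggtgtttg
Each is 20 bases long, and by the locus identifiers the genes lie on chromosomes 12, 7 and 11 of the MSU 7.0 annotation. No coordinates are given, since no genome of that build was used here.

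Whether a cultivar difference was stable was read from the COLD means, which come from other plants and libraries of the same cultivars. Of the 2768 genes 2-fold or more higher in S.AND CONTROL, 1614 (58.3%) were past 2-fold the same way in the COLD means and 28 were 2-fold lower. Of the 1958 on the ERY side, 1195 (61.0%) were 2-fold higher in ERY COLD and 29 were 2-fold lower. At 16-fold, the shares were 59.9% of 596 and 80.9% of 425. A difference of any size in the same direction was seen for 91.4% of the 2768 and 93.6% of the 1958. Across the 24468 genes listed at 0 in no mean, Pearson's r between the control and the COLD log2 ratio was 0.86 and Spearman's rho 0.69, and across the 20868 genes of at least 1 RPKM in all 4 means they were 0.76 and 0.66. These are descriptions across genes, which are not independent replicates. Among 24244 genes of at least 1 RPKM in a COLD mean, 1660 (6.85%) were 2-fold higher in S.AND COLD and 1676 (6.91%) in ERY COLD. At 4-fold these counts were 766 (3.16%) and 658 (2.71%). The S.AND side thus held more genes than the ERY side at both folds in the controls, whereas in the COLD means it held more at 4-fold and fewer at 2-fold.

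Some genes were read in one cultivar and almost unread in the other. With at least 10 RPKM in S.AND CONTROL and under 0.1 in ERY CONTROL there were 38 genes, of which 33 were under 0.1 RPKM in ERY COLD as well and 23 met both limits in the COLD means. In the other direction, 59 genes had at least 10 RPKM in ERY CONTROL and under 0.1 in S.AND CONTROL, and 55 of them were under 0.1 in S.AND COLD and 40 met both limits in the COLD means. By contrast, 170 of the 2335 genes past 4-fold in the controls (7.28%) were within 1.5-fold in the COLD means. Besides OsINV4 and OsERF1, they include an oligopeptide transporter gene (LOC_Os02g46860), with 1.88 and 12.6 RPKM in ERY CONTROL and S.AND CONTROL and 11.98 and 11.97 in the COLD means. Another is a nodulin MtN3 family gene (LOC_Os12g29220), with 1.53 and 24.2 RPKM in the controls and 5.10 and 4.33 in the COLD means. The lipid transfer protein gene LTPL129 (LOC_Os06g43600) had 24.8 and 109 RPKM in the controls and 16.1 and 21.5 in the COLD means. These examples were chosen after their values were seen.

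**Figure D3:**
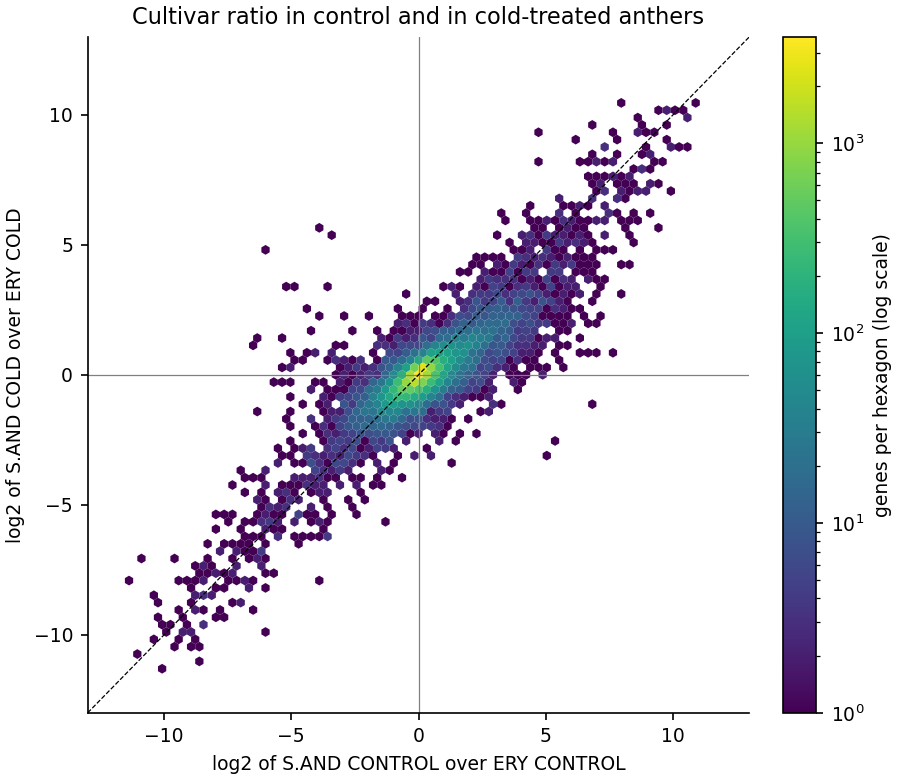
Log2 ratio of S.AND CONTROL over ERY CONTROL (x axis) against that of S.AND COLD over ERY COLD (y axis) for the 24468 genes listed at 0 in no mean, in hexagons coloured by gene number, with a dashed line where both ratios are equal. Most genes lie near 0 on both axes (r = 0.86). Genes far apart in the controls mostly kept their direction, but some lie well off the line, such as LOC_Os10g33760 (7.18 on the x axis and 2.32 on the y axis).

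Along the genome, genes past 4-fold were unevenly spread. On chromosome 11, 139 of 1492 genes (9.32%) lay past 4-fold on the S.AND side and 105 (7.04%) on the ERY side, and on chromosome 10 these shares were 7.67% and 7.00%. Chromosome 2 had the lowest share over both directions, with 3.46% and 2.31% of 2860 genes. In the COLD means, chromosome 11 again had the highest share past 4-fold in either direction (13.1%, against 16.4% in the controls) and chromosome 2 the lowest (3.43%, against 5.77%). Genes that followed each other in locus order also went together in places. Genes under 1 RPKM in both control means were skipped, so consecutive genes here need not be adjacent on the chromosome. On this count, 20 runs of at least 4 consecutive genes lay past 4-fold on one side. Of these runs, 12 were higher in S.AND CONTROL (63 genes) and 8 higher in ERY CONTROL (40 genes). Of these 103 genes, 90 were past 4-fold the same way in the COLD means. Genes under 1 RPKM in the lower control mean passed the limit only through the higher one, so the filter enters the runs.

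**Figure D4:**
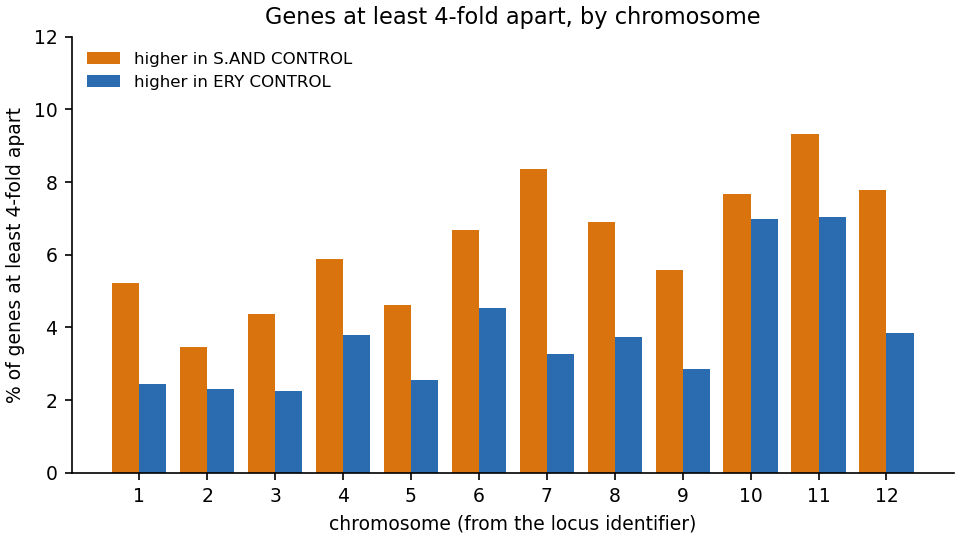
Percent of genes past 4-fold with the higher mean in S.AND CONTROL (orange bars) or in ERY CONTROL (blue bars) on each of the 12 chromosomes, over the genes with at least 1 RPKM in one control mean. Both bars are high on chromosomes 10 and 11 (9.32% and 7.04% on chromosome 11) and both are low on chromosome 2 (3.46% and 2.31%).

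On the ERY side, the longest run held 9 genes from LOC_Os01g02390 to LOC_Os01g02500, with 1.11 to 13.8 RPKM in ERY CONTROL and at most 0.0792 RPKM in S.AND CONTROL. All 9 thus passed the limit only through ERY CONTROL, and all 9 were past 4-fold the same way in the COLD means. On the S.AND side, a run of 8 genes from LOC_Os06g02760 to LOC_Os06g03190 had 1.05 to 17.0 RPKM in S.AND CONTROL and at most 0.201 in ERY CONTROL. These 8 passed the limit only through S.AND CONTROL. In another run on that side, the 5 genes from LOC_Os07g35370 to LOC_Os07g35510, 1 of 5 was past 4-fold the same way in the COLD means. None of the genes of these 3 runs has a name or description in the sources used here.

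The longest run of all, 10 genes from LOC_Os11g01220 to LOC_Os11g01380, higher in S.AND CONTROL, contains OsFAD3. It is part of a longer stretch, LOC_Os11g01180 to LOC_Os11g01570, whose limits were set after its values were seen. The stretch holds 36 genes, of which 25 were above the limit. Of these 25 genes, 23 lay past 2-fold and 20 past 4-fold on the S.AND side, beside 11.2% and 5.95% of all genes. Of the 25, 19 were under 1 RPKM in ERY CONTROL. Those 19 passed the limit only through S.AND CONTROL, and genes low in both cultivars were left out, so the filter enters these counts. Others were read in both cultivars, such as LOC_Os11g01510 (50.2 and 125.7 RPKM) and the calmodulin-related gene OsCML25 (LOC_Os11g01390, 11.3 and 8.07 RPKM). In rice, the ends of the short arms of chromosomes 11 and 12 carry a recent duplicated segment with closely similar gene copies, between which short reads can be divided. In the part of chromosome 12 with like locus numbers, LOC_Os12g01170 to LOC_Os12g01560, 24 of 29 genes were lower in S.AND CONTROL. Of the 29, 8 were at least 2-fold lower, beside a background of 7.90% of all genes. The median log2 ratio of the 29 was -0.83, against 0.04 over all genes. The limits of this part were also set after its values were seen. Gene copies were not paired here, and a division of reads between them was not tested. The chromosome 11 stretch summed to 70.9 and 889 RPKM in the control means, and the chromosome 12 stretch to 2467 and 1108. Together they came to 2537 and 1996 RPKM in the control means, and to 2382 and 2381 in ERY COLD and S.AND COLD. The most abundant gene of the chromosome 12 stretch, LOC_Os12g01370, had 1224 and 361 RPKM in the control means and 833 and 341 in the COLD means. The joint sums therefore depend much on this gene. Values of single genes in these stretches, OsFAD3 among them, are therefore uncertain as measures of one copy. Without the stretch, 15.3% of the genes of chromosome 11 were past 4-fold in either direction, against 16.4% with it.

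**Figure D5:**
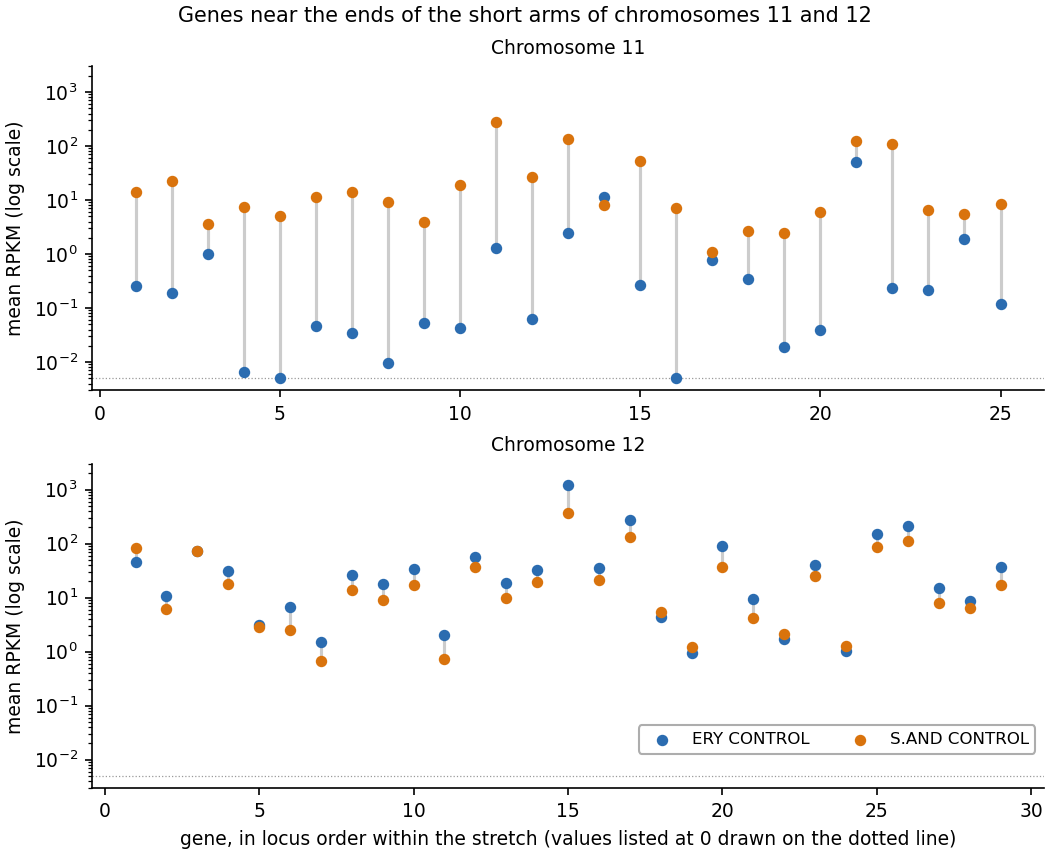
Mean RPKM (y axis, log scale) in ERY CONTROL (blue) and S.AND CONTROL (orange) of the genes above the limit near the end of the short arm of chromosome 11 (top, 25 genes) and chromosome 12 (bottom, 29 genes), in locus order. On chromosome 11, 19 genes are under 1 RPKM in ERY CONTROL against 0 in S.AND CONTROL, and on chromosome 12 most genes are read in both, 24 of 29 of them lower in S.AND CONTROL. Genes under 1 RPKM in both control means are not drawn, so the 19 are shown only through their S.AND CONTROL means.

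Reads of both cultivars were mapped to gene models of 1 reference cultivar. A gene that is absent or different in sequence in ERY or S.AND can therefore not be told apart from a gene that is not transcribed, which bears on the genes listed at 0 and on the runs.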

How the data were processed

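Anther poly(A) RNA from 3 samples in each of 4 groups was read as single 50 bp reads (TruSeq mRNA kit, Illumina). With CLC Genomics Workbench 4.7.1, the authors assigned reads to gene models of the MSU 7.0 annotation and deposited the mean RPKM of each group, normalised by total reads. Each deposited RPKM column sums to just under 1000000, so values are relative to the rest of their group. The table also holds the authors' own cold against control comparison in each cultivar (fold changes and FDR of Baggerley's test), which were not used. It has 0 columns per sample and no read counts. Whether counting used strand is not stated in these sources, so overlapping genes may share reads.

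From the means, log2 ratios (S.AND CONTROL over ERY CONTROL) were computed without a pseudocount for genes of at least 1 RPKM in one of both. A gene listed at 0 on one side counted as past every fold. Genes were described by counts past 2-, 4-, 8- and 16-fold and by medians. No test was made. Members and lists were chosen with earlier results of these data known. Named were list genes at least 2-fold apart and the 3 highest per role, the qRT-PCR genes, the 12 highest and 12 lowest ratios among described genes of at least 10 RPKM, and up to 4 per group formed by description with at least 5 RPKM; the text gives a selection of these. Names and descriptions come from the study's tables, since 0 identifiers matched the reference table, and markers of pistil, lemma and palea were therefore not checked. Alternatives were 3 filters, 2 pseudocounts (1 and 0.1 RPKM) and 3 scalings. The code was tested on simulated data. Python 3.11.15, NumPy 2.4.6, pandas 2.3.3 and matplotlib 3.10.9 were used.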

Additional observations from a re-analysis of the deposited data

How the results depend on the processing

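The number of genes apart depended on the treatment of low values and hardly on scaling. Higher by 2-fold in S.AND CONTROL were 873 genes with at least 10 RPKM in one of both means, 1257 with at least 1 RPKM in both and 10166 with no filter, and in ERY CONTROL 677, 998 and 7821. At 4-fold the counts under these 3 filters were 407, 368 and 6902 on the S.AND side and 276, 205 and 5277 on the ERY side. With 1 RPKM added, 1302 genes were 2-fold higher in ERY CONTROL, and at 4-fold 595 lay on the S.AND side and 410 on the ERY side. The S.AND side held between 55.7% and 64.2% of the calls in all of these, against 58.6% at 2-fold and 63.2% at 4-fold without them. The 3 scalings moved all log2 ratios by 0.02 to 0.04 and left each of these counts within 1.5 times. With 1 RPKM added, 1 ethylene gene instead of 4 was 2-fold higher in ERY CONTROL; the anther development, starch and described lists kept their counts within 1.5 times under both pseudocounts and all scalings. Of 91 named genes past 2-fold, 81 stayed so with 1 RPKM added and 87 after centring on the median gene, and none changed direction. Asking only for the same direction in the COLD means, 4362 genes instead of 2809 at 2-fold and 2234 instead of 1386 at 4-fold were shared. Runs of at least 3 genes numbered 69 (47 on the S.AND side and 22 on the ERY side), and runs of at least 4 genes past 2-fold numbered 60 (35 and 25). No paired analysis was possible because the table holds group means only, and for the same reason no sample could be left out. Spread between samples was not analysed here, nor were the read counts behind low means. Medians were compared between settings by a shift of 0.1 on the log2 scale, as there is no replicate spread.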

Other observations

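In the control means, a few further groups of described genes had no member past 2-fold. They were the 9 protein phosphatase 2C genes, the 12 genes with an RNA recognition motif, the 4 aquaporin genes and the 4 histone genes. Within 2-fold were also 80.9% of all genes and 1234 of the 1436 described genes above the limit. In groups this small, a count of 0 therefore says little about the group. Of the aquaporin genes, LOC_Os02g13870 had 944 and 896 RPKM in the control means, and LOC_Os04g47220 had 752 and 597. Of the heat shock genes, 2 of 27 were past 2-fold on the S.AND side and 0 on the ERY side, and of the calcium group 2 of 31 and 0, shares of 7.41% and 6.45% beside a background of 11.2% on the S.AND side. The DnaK family gene LOC_Os01g62290 had 210 and 109 RPKM in the control means. For redox genes, catalase isozyme A (LOC_Os02g02400), which breaks down hydrogen peroxide, had 11.9 and 4.65 RPKM, and a peroxidase precursor gene (LOC_Os01g15830) had 143 and 334. Among 28 transposon genes, 25 of them above the limit, LOC_Os11g39940 had 0.790 and 72.4 RPKM in the control means, and LOC_Os10g29400 had 12.97 and 0.117.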
